A study of Mus musculus with 8 samples.

Results

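The constitutive proteasome is described here across its 34 subunit and base chaperone genes, out of 18194 genes with a single-gene probe set on the array. The genes were taken by symbol: Psma1 to Psma7 and Psmb1 to Psmb7 for the core, Psmc1 to Psmc6 for the ATPase ring and Psmd1 to Psmd14 for the rest of the regulatory particle. The inducible immunosubunits Psmb8 to Psmb10 were left out of the group and are given with the related genes. The 34 genes comprised 14 of the core, 9 of the base, 8 of the lid and 3 chaperones that help to assemble the base. The samples were whole blood of female mice aged 6 to 8 weeks, taken on Day 7 from 4 mice that had undergone daily restraint stress (RST) of 6 h and from 4 control mice. Control mice had no food or water during those hours and were not restrained. The methods give the strain as C57BL/6J, and no genetic change separates the groups. Amplified, biotin-labeled material from 30 ng of RNA per mouse was read on a separate Affymetrix mouse GeneChip, and each level below is the authors' log2 value of a probe set. Blood is a mixture of cells, so fewer cells of a type and less RNA per cell cannot be told apart in these values.

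The proteasome is the barrel-shaped protease that degrades ubiquitin-tagged proteins in the cytosol and nucleus. Rings of alpha subunits close both ends of the barrel, and rings of beta subunits between them hold the active sites. A regulatory particle caps the barrel: its base unfolds substrates with a ring of ATPases and binds ubiquitin, and its lid removes the ubiquitin chain. Maturing red cells depend on ubiquitin-dependent degradation to clear much of their protein content, and lymphocytes use the same particle for cell cycle control, NF-kB activation and the supply of peptides for antigen presentation.

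All 34 genes passed the filter on dim probe sets, which kept 11762 genes. They were measured by 72 probe sets, of which 57 passed. Each gene is represented by its brightest passing probe set, and differences are RST minus control on the log2 scale with the standard error (SE) of limma, n = 4 mice per group. Several arrays stood apart. The hybridization controls averaged 11.9 in control mice 1 and 2, 12.4 in RST mouse 2 and 12.6 to 12.7 in the other 5 mice. The upper quartile of all log2 values was 4.50 in RST mouse 4 and 5.06 to 5.37 in the other mice. Medians and many of the single differences are also given without control mice 1 and 2, a choice made after the data were seen.

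Proteasome genes were mostly lower in the blood of RST mice, but none passed the adjusted threshold. Mean levels were lower in RST mice for 31 of the 34 genes (91.2%), compared with 67.6% of all genes. The 31 became 27 after quantile normalization, 28 without control mice 1 and 2, and 22 without those mice and RST mouse 4. The median difference was −0.52, which was −0.27 from the median gene of the array (−0.24). Without control mice 1 and 2 the median was −0.22 and the shift −0.080, and with the hybridization controls as a covariate they were −0.23 and −0.097. Single differences ran from −0.97 for Psmc1 to 0.59 for Psmd4, and only Psmd4, Psmd8 and Psmd9 had higher means in RST mice. A gene was called where the adjusted p in limma was under 0.05 and the fold change exceeded 1.5. No gene of the group was called, and 0% of the 25084 probe sets tested were called. The adjusted p values of the 34 genes in limma ran from 0.32 to 0.92.

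At an unadjusted p under 0.05 and the same fold change, limma gave 9 lower genes and 1 higher gene in the group. Of all genes, 12.8% were lower and 2.8% were higher by that rule. The 9 were Psma1, Psma2, Psmb1, Psmb6, Psmc1, Psmc5, Psmd6, Psmd12 and Psmd13, and the higher gene was Psmd4. Psmd4 no longer met the rule after quantile normalization, scaling to the control probe sets, the mean over probe sets or the covariate, or without any of 6 mice (control mice 1, 2 and 3 and RST mice 1, 2 and 3), although its difference stayed above 0. The count of lower genes was 3 when control mouse 1, control mouse 2 or RST mouse 4 was left out, 5 when RST mouse 1 was left out and 14 when RST mouse 2 was left out. Without control mice 1 and 2 together it was 0. It was 1 with the hybridization controls as a covariate, and scaling the arrays to their control probe sets made it 18. Without control mice 1 and 2 the 9 genes listed differed, in order, by −0.35, −0.49, −0.41, −0.73, −0.47, −0.52, −0.65, −0.63 and −0.46. The groups did not overlap for 7 lower genes and 1 higher gene, against 6.57% of all genes lower and 2.37% higher. The 7 were Psma2, Psma3, Psma4, Psmb3, Psmb4, Psmb6 and Psmd6, and the higher gene was again Psmd4. Of these, Psma3, Psmb3, Psmb4, Psmd6 and Psmd4 each had another passing probe set whose groups overlapped. Psma6 and Psmb1 overlapped at their brightest probe sets but had other passing probe sets that were lower without overlap. For a gene whose groups do not overlap, the two-sided exact permutation p is 0.029, the smallest that 4 against 4 mice can give.

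**Figure D1:**
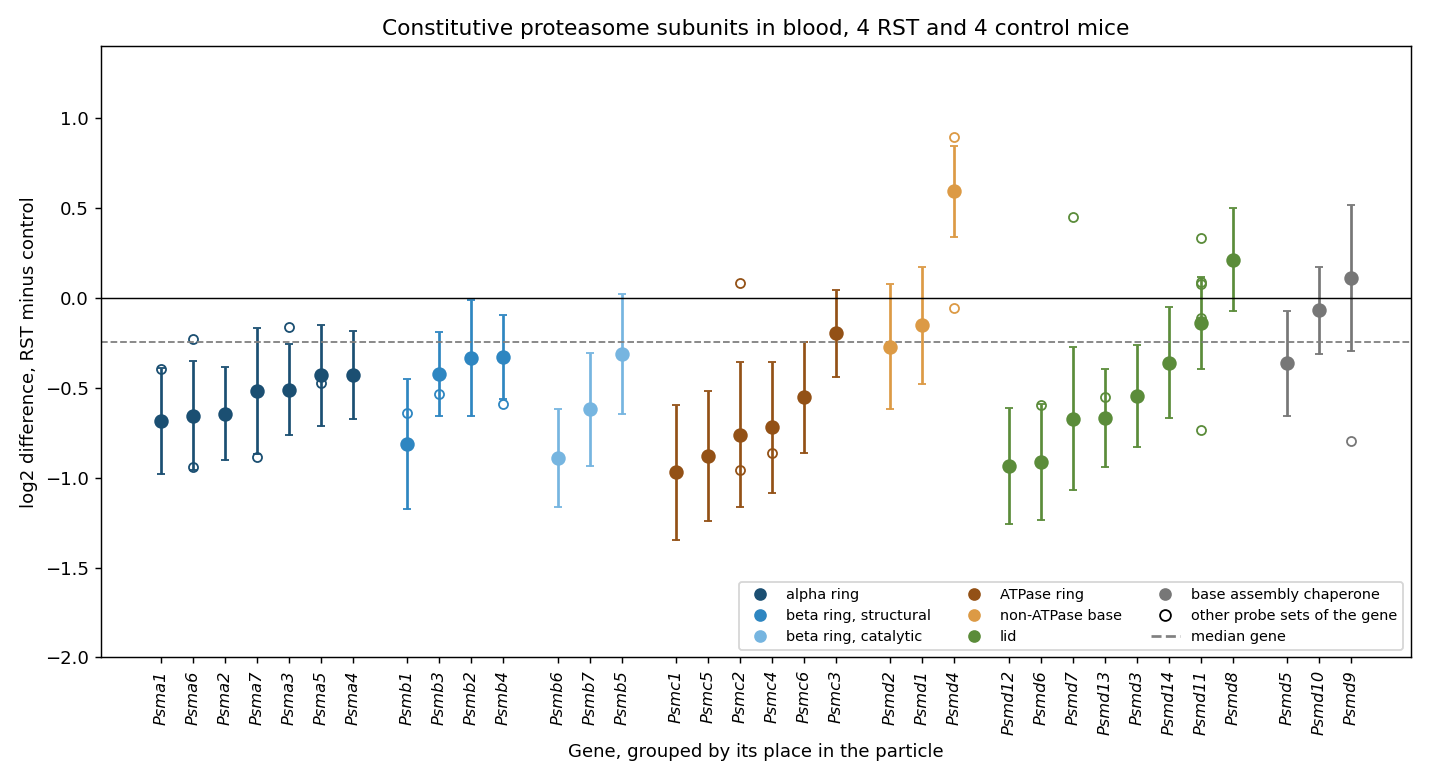
Difference between RST and control mice for each of the 34 proteasome genes (log2, y axis), grouped by place in the particle (x axis). Filled points are the brightest probe set of the gene with its SE (n = 4 mice per group), open circles are its other passing probe sets, and the dashed line is the median gene at −0.24. All 14 core genes lie below 0, a count that was 12 without control mice 1 and 2, and Psmd4 lies highest at 0.59.

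Promoters are shown for 4 genes on which the results below turn. Psmb6 had the smallest p of the group in limma, Psmd12 had the smallest p of the lid, Psmd4 was the member higher in every RST mouse, and Psmf1, an inhibitor outside the group, had the largest positive difference of the related genes. Each sequence runs 5′ to 3′ on the strand of the gene, over the 250 bases before the RefSeq start (GRCm38.p6) and the first 50 from it, and capitals mark the motif named. The motifs were searched on both strands and their positions count from the start as 0. TGACNNNGC is the core of the antioxidant response element, to which NRF1, the transcription factor known for driving proteasome genes, and NRF2 bind. CCAAT is the box bound by NF-Y, and AGATAA is a site for GATA factors.
Psmb6, chr11:70525107-70525406, plus strand, with TGACNNNGC at −9: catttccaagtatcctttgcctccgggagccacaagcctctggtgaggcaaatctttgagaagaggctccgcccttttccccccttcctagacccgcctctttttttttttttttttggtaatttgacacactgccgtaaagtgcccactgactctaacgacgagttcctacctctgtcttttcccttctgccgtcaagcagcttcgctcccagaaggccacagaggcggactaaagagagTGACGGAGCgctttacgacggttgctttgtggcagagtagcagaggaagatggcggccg
Psmd12, chr11:107479278-107479577, plus strand, with TGACNNNGC on the other strand at −247: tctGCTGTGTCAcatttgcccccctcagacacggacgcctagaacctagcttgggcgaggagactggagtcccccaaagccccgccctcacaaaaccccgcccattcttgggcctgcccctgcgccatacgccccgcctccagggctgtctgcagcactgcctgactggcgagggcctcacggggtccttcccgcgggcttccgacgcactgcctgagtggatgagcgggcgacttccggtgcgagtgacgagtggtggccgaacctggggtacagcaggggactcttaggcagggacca
Psmd4, chr3:95042565-95042864, minus strand, with CCAAT on the other strand at −95 and 1, and on the strand shown at 20: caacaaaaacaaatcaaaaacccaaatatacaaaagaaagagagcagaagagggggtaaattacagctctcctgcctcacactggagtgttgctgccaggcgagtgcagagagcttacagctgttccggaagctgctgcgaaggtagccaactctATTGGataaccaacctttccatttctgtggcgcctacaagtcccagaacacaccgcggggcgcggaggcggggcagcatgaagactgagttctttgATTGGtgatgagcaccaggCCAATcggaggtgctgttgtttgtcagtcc
Psmf1, chr2:151741261-151741560, minus strand, with AGATAA at −101: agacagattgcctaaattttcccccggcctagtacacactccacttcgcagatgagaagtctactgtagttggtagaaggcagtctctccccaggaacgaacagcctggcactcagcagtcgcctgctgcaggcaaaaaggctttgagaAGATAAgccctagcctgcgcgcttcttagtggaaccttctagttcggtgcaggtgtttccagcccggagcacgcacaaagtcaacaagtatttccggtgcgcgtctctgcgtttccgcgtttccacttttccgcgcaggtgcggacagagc
Of the 34 genes, 28 had a promoter in the table. TGACNNNGC lay in 5 of the 28 (17.9%; Psmb5, Psmb6, Psmc6, Psmd9 and Psmd12) and in 12.5% of all 27025 promoters of this length. CCAAT lay in 11 of the 28 (39.3%) and in 37.9% of all promoters. It lay in 6 of 11 core promoters (54.5%) and in 4 of 14 base and lid promoters (28.6%), and no test was made of that difference. AGATAA lay in 2 of the 28 (7.14%; Psmc6 and Psmd9) and in 11.4% of all, and CCNCACCC, a KLF-type site, in 2 of the 28 (7.14%; Psmc2 and Psmd9) and in 16.4% of all. These matches are letters in a window and say nothing of binding.

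The alpha ring is the gate of the core, through which unfolded protein enters. All 7 alpha genes had lower means in RST mice (at least 6 in every other setting), with a median difference of −0.52 (−0.34 without control mice 1 and 2), and the groups did not overlap for Psma2, Psma3 and Psma4. Psma2 was 8.69, 8.77, 8.41 and 8.43 in control mice 1 to 4 and 8.01, 7.96, 8.25 and 7.50 in RST mice 1 to 4. Every RST mouse lay below every control mouse, with the lowest value in RST mouse 4. The difference in Psma2 was −0.64 (SE 0.26, adjusted p = 0.34 in limma). Psma1 was 7.25, 7.49, 6.51 and 6.87 in control mice and 6.26, 6.68, 6.47 and 5.96 in RST mice, a difference of −0.69 (SE 0.29, adjusted p = 0.35 in limma). In Psma1 the groups overlapped, because RST mouse 2 lay above control mouse 3. Psma3 (−0.51, SE 0.25) and Psma4 (−0.43, SE 0.24) had smaller differences without overlap. A dimmer probe set of Psma3 differed by −0.16, with overlap. At their brightest probe sets the other 3 genes overlapped between groups, with differences of −0.65 in Psma6, −0.52 in Psma7 and −0.43 in Psma5. Other passing probe sets of Psma6 differed by −0.94 and −0.23, both without overlap. Both are of the kind that can bind related transcripts. Without control mice 1 and 2 Psma7 differed by 0.010 at this probe set. A second probe set of Psma7, nearly as bright, differed by −0.89 over all mice, with overlap.

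The structural beta subunits complete the inner rings without an active site. The 4 genes had lower means in RST mice (at least 3 in every other setting), with a median difference of −0.38 (−0.31 without control mice 1 and 2). Psmb3 was 8.75, 8.79, 8.87 and 8.70 in control mice and 8.16, 8.34, 8.34 and 8.57 in RST mice, without overlap. The difference in Psmb3 was −0.42 (SE 0.23, adjusted p = 0.42 in limma), and the control mice lay within an SD of 0.073. Psmb4 had a difference of −0.33 (SE 0.23), also without overlap, on a probe set of the kind that can bind related transcripts. Other passing probe sets differed by −0.54 in Psmb3 and −0.59 in Psmb4, both with overlap. Psmb1 was 8.43, 8.58, 7.48 and 7.90 in control mice and 7.40, 7.67, 7.66 and 6.40 in RST mice, a difference of −0.82 (SE 0.36, adjusted p = 0.36 in limma). Psmb1 overlapped, since control mouse 3 lay within the range of the RST mice, and without control mice 1 and 2 it differed by −0.41. The groups overlapped for Psmb2 as well (−0.33, SE 0.32), whose difference was −0.063 without RST mouse 4. A dim passing probe set of Psmb1, averaging 3.36 in control mice, differed by −0.64 without overlap.

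The catalytic beta subunits carry the protease sites: Psmb6 the caspase-like, Psmb7 the trypsin-like and Psmb5 the chymotrypsin-like activity. Psmb6 was 8.24, 8.26, 7.89 and 7.95 in control mice and 6.99, 7.55, 7.46 and 6.75 in RST mice. Every RST mouse lay below every control mouse, with RST mice 1 and 4 the lowest. The difference in Psmb6 was −0.89 (SE 0.27, 1.86-fold, adjusted p = 0.32 in limma), and it ran from −1.10 to −0.58 over 21 other settings. Psmb7 was 7.39, 7.67, 6.46 and 6.91 in control mice and 6.33, 6.89, 6.56 and 6.18 in RST mice, a difference of −0.62 (SE 0.32) with overlap that was −0.20 without control mice 1 and 2. Psmb5, which is the main target of the drug bortezomib, was 7.41, 7.84, 6.76 and 7.05 in control mice and 7.40, 7.25, 6.88 and 6.28 in RST mice. The values of Psmb5 were intermixed, and its difference of −0.31 (SE 0.33) was 0.044 without control mice 1 and 2 and 0.018 once the hybridization controls were added as a covariate. The promoter windows of Psmb6 and Psmb5 both hold TGACNNNGC.

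The ATPase ring of the base, Psmc1 to Psmc6, unfolds substrates and threads them into the core. All 6 genes had lower means in RST mice, with a median difference of −0.74 (−0.47 without control mice 1 and 2), and none of the 6 was free of overlap between groups. Psmc1 was 7.21, 7.42, 6.39 and 6.22 in control mice and 6.08, 6.46, 5.72 and 5.10 in RST mice. Control mice 1 and 2 were clearly above the rest, and RST mouse 2 lay above control mice 3 and 4. The difference in Psmc1 was −0.97 (SE 0.37, 1.96-fold, adjusted p = 0.33 in limma), and it ran from −1.18 to −0.22 over the settings. Psmc5 was 5.44, 5.54, 4.70 and 4.85 in control mice and 3.94, 4.73, 4.87 and 3.47 in RST mice, a difference of −0.88 (SE 0.36). Psmc2 was 6.88, 6.77, 6.26 and 6.55 in control mice and 6.35, 6.49, 6.01 and 4.57 in RST mice, a difference of −0.76 (SE 0.40) in which RST mouse 4 was far below the others. A second bright probe set of Psmc2 had a difference of −0.96, and a dim probe set, averaging 3.16 in control mice, one of 0.079. Psmc4 (−0.72, or −0.19 without control mice 1 and 2), Psmc6 (−0.55) and Psmc3 (−0.20) overlapped between groups. Without control mice 1 and 2 the 6 genes still had lower means, and without RST mouse 4 as well 4 of the 6 did.

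The base also holds Psmd1 and Psmd2, large scaffold subunits that dock ubiquitin receptors and shuttles, and Psmd4, itself a receptor for ubiquitin chains. Psmd4 was the member that went the other way. It was 10.05, 9.71, 9.90 and 10.40 in control mice and 10.78, 10.61, 10.52 and 10.52 in RST mice, so that every RST mouse lay above every control mouse. The difference in Psmd4 was 0.59 (SE 0.25, 1.51-fold, adjusted p = 0.35 in limma). It stayed above 0 in 21 other settings, from 0.39 after scaling to the control probe sets to 0.72 without control mouse 4, and was 0.46 without control mice 1 and 2. A second probe set of Psmd4 was 9.09, 8.77, 8.72 and 9.59 in control mice and 10.12, 9.93, 9.90 and 9.80 in RST mice, a difference of 0.90 (SE 0.27) without overlap. The remaining probe set was dimmer, averaging 5.33 in control mice, and had a difference of −0.057. Psmd2 was 7.44, 7.56, 7.33 and 7.22 in control mice and 7.22, 7.43, 7.73 and 6.08 in RST mice. Its difference of −0.27 (SE 0.35) rested on RST mouse 4 and was 0.074 without it. Psmd1 had a difference of −0.15 (SE 0.33), which was 0.033 without RST mouse 4 and 0.17 without control mice 1 and 2.

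**Figure D2:**
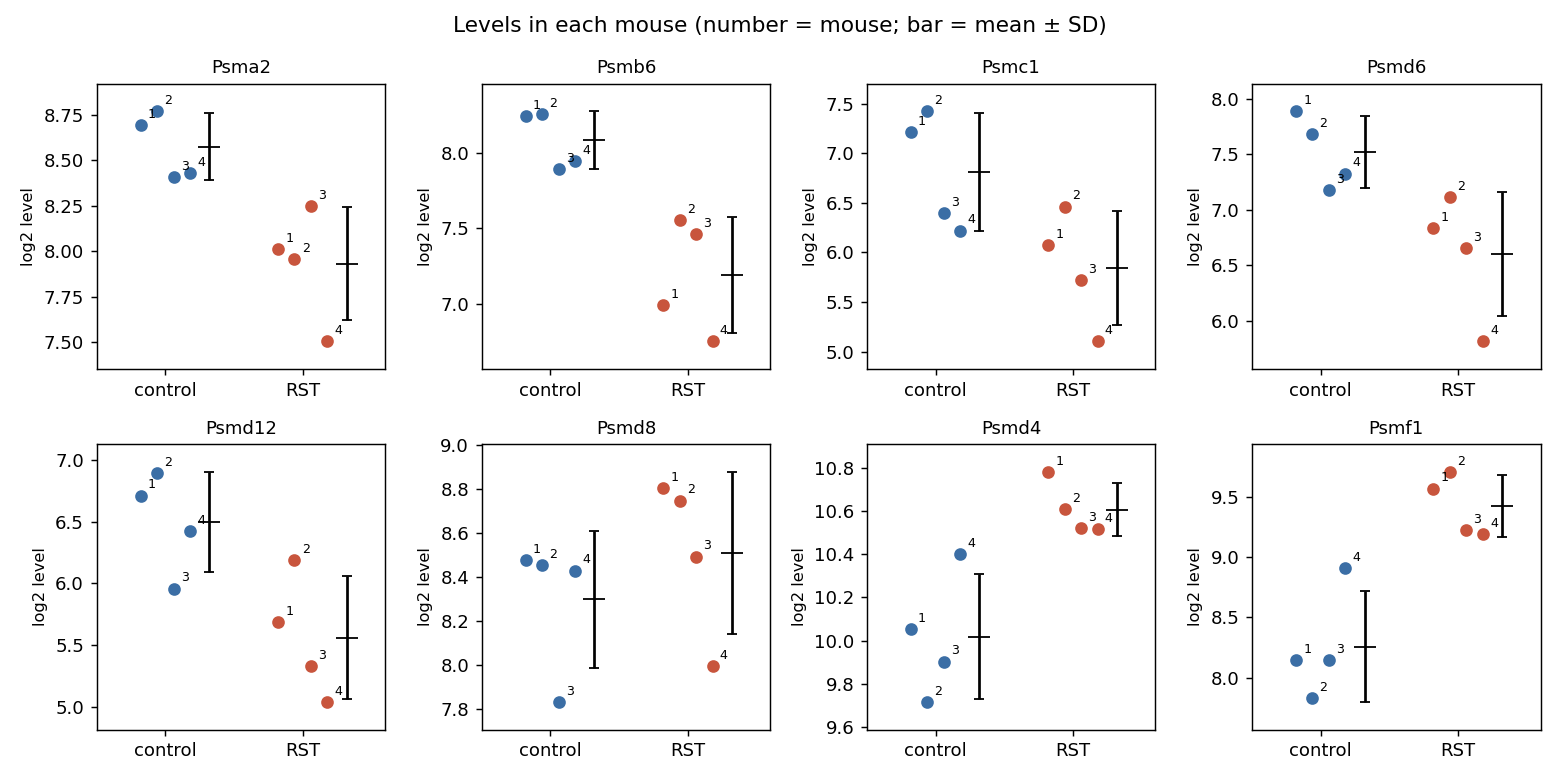
Log2 level (y axis, scaled to each gene) of 7 proteasome genes and of the inhibitor Psmf1 in control (blue) and RST (red) mice (x axis). Numbers are mice and bars are mean ± SD (n = 4). Psma2, Psmb6 and Psmd6 lie lower in every RST mouse and Psmd4 and Psmf1 higher, while Psmc1, Psmd12 and Psmd8 overlap.

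The lid carries Psmd14, the metalloprotease that cuts ubiquitin chains from substrates, in a scaffold of related subunits that includes Psmd7, its catalytically inactive partner. Of the 8 lid genes 7 had lower means (6 at the fewest in other settings). The median difference was −0.61, but −0.24 without control mice 1 and 2 and −0.23 with the hybridization covariate. Psmd6 was 7.89, 7.68, 7.18 and 7.33 in control mice and 6.84, 7.11, 6.65 and 5.81 in RST mice. Of these 8 genes it was the single one without overlap at its brightest probe set. The difference in Psmd6 was −0.91 (SE 0.32, 1.88-fold, adjusted p = 0.32 in limma), with RST mouse 2 only just below control mouse 3. A dimmer probe set of Psmd6 differed by −0.60, with overlap. Psmd12 was 6.71, 6.89, 5.96 and 6.42 in control mice and 5.68, 6.19, 5.33 and 5.04 in RST mice, a difference of −0.93 (SE 0.32, 1.91-fold, adjusted p = 0.32 in limma). In Psmd12, whose promoter is printed above, RST mouse 2 lay above control mouse 3. Psmd13 had a difference of −0.67 (SE 0.27) and Psmd3 one of −0.55 (SE 0.29). Psmd14 was 8.06, 8.14, 7.58 and 7.25 in control mice and 7.14, 7.98, 7.04 and 7.43 in RST mice, a difference of −0.36 (SE 0.31) with wide overlap, which was −0.018 without control mice 1 and 2. Psmd8 was 8.48, 8.46, 7.83 and 8.43 in control mice and 8.80, 8.75, 8.49 and 8.00 in RST mice. In Psmd8 3 RST mice lay above all control mice and RST mouse 4 did not, for a difference of 0.21 (SE 0.28). Psmd7 was 4.97, 5.45, 3.75 and 3.98 in control mice and 3.98, 3.98, 4.24 and 3.27 in RST mice. Its difference of −0.67 (SE 0.40) was −0.00034 without control mice 1 and 2, and 0.20 without those mice and RST mouse 4. A dim second probe set of Psmd7 had a difference of 0.45. Psmd11 was 7.39, 7.27, 7.69 and 7.07 in control mice and 7.33, 7.36, 7.28 and 6.89 in RST mice. The values of Psmd11 were intermixed, with a difference of −0.14 (SE 0.26), and its 5 other passing probe sets ran from −0.74 to 0.33.

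The base chaperones Psmd5, Psmd9 and Psmd10 bind the ATPases during assembly and leave before the particle is complete. None met the unadjusted rule in limma. Psmd5 was 6.34, 6.00, 5.61 and 5.67 in control mice and 5.56, 6.00, 5.59 and 5.02 in RST mice, a difference of −0.37 (SE 0.29) that was −0.097 without control mice 1 and 2. Psmd10, known as gankyrin, was 6.30, 6.02, 6.00 and 6.29 in control mice and 6.06, 6.30, 5.85 and 6.12 in RST mice, a difference of −0.070 (SE 0.24). Psmd9 was 5.73, 5.10, 4.98 and 5.20 in control mice and 6.04, 5.91, 5.39 and 4.11 in RST mice. The difference in Psmd9 was 0.11 (SE 0.41) with RST mice at both ends of the range, and a dimmer probe set of the gene had a difference of −0.80.

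Core and regulatory genes were next compared within each mouse. For this, each log2 value was taken relative to the mean of its gene over the 8 mice, averaged over the genes of a group, and set against the median gene of the array, which gave a score. The core score was 0.21, 0.33, −0.046 and 0.057 in control mice and −0.26, −0.13, −0.19 and −0.13 in RST mice (0.14 ± 0.16 and −0.17 ± 0.060, SD, n = 4), without overlap. Control mice 3 and 4 alone also lay above the 4 RST mice. The base score was 0.22, 0.19, −0.11 and 0.027 in control mice and 0.040, −0.0052, −0.11 and −0.41 in RST mice, and the lid score was 0.26, 0.28, −0.0615 and −0.0205 against −0.14, 0.016, −0.28 and −0.21. Base and lid scores overlapped between the groups.

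Core minus base and lid was −0.033, 0.095, 0.038 and 0.052 in control mice and −0.21, −0.13, 0.0049 and 0.19 in RST mice. The means were 0.038 ± 0.053 and −0.038 ± 0.18 (SD, n = 4), a difference of −0.076 that was within the pooled SD of 0.13 between mice. The 4 RST mice spanned a range that contained every control mouse. Without Psmd4 the difference was −0.010, and over the other settings it ran from −0.16 to −0.018. Within the base, the ATPase ring score was lower in RST mice without overlap (0.20 ± 0.22 and −0.24 ± 0.26). The margin was narrow, with 0.016 in control mouse 4 and −0.018 in RST mouse 2. No single gene of the ring was free of overlap. Psmd1, Psmd2 and Psmd4 together were −0.16 ± 0.17 in control mice and 0.12 ± 0.16 in RST mice, with overlap. The structural beta subunits had the smallest spread between mice of the groups of subunits (0.10 ± 0.059 and −0.14 ± 0.045). These scores are given with no test, since the members were chosen with results known.

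**Figure D3:**
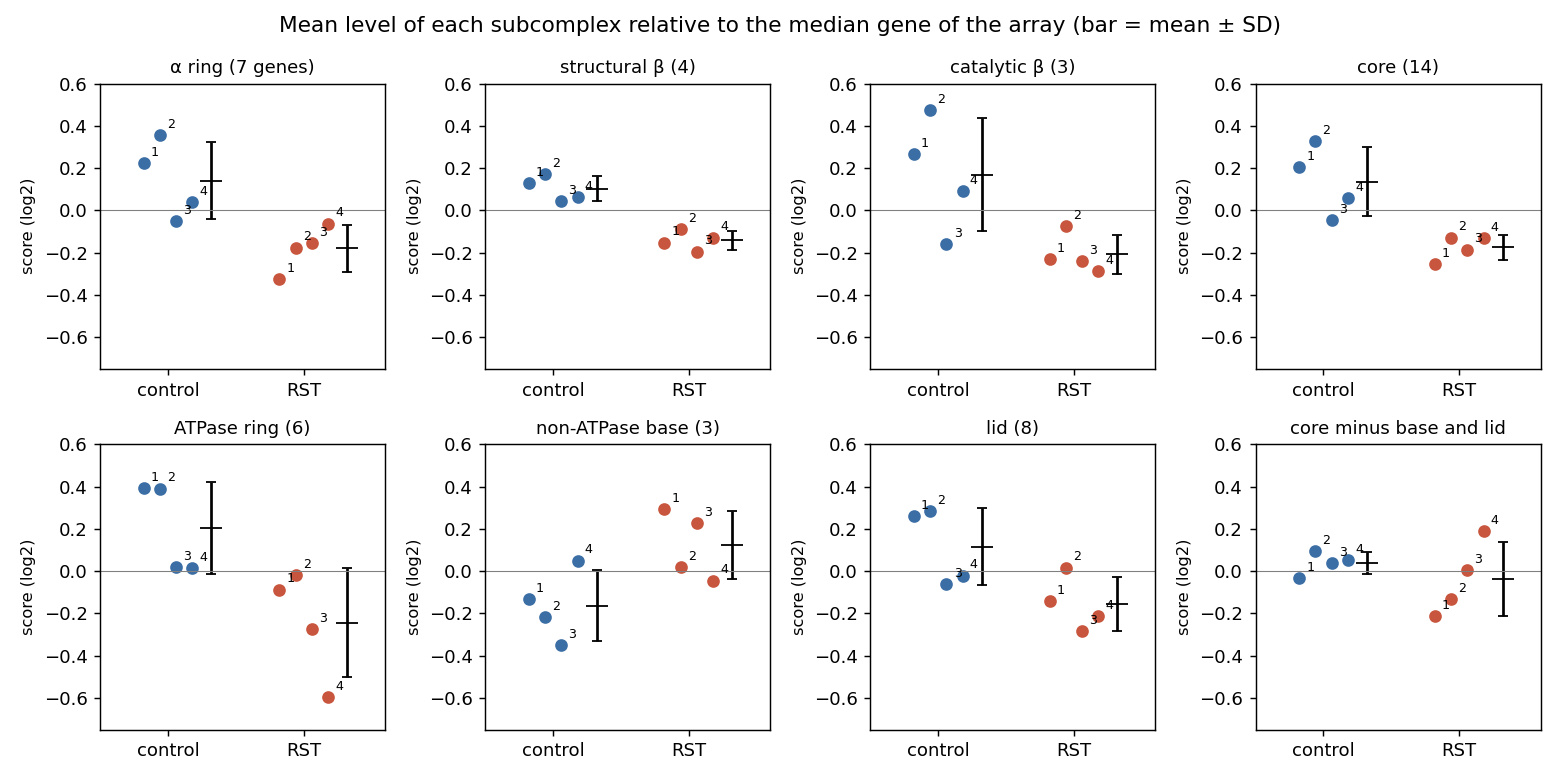
Score of each group of subunits (y axis, log2 relative to the median gene) in control (blue) and RST (red) mice (x axis). Numbers are mice and bars are mean ± SD (n = 4). On this score the core, its alpha and structural beta subunits and the ATPase ring do not overlap between groups. The margin is narrow in the alpha ring (−0.050 in control mouse 3, −0.063 in RST mouse 4). It is also narrow in the ATPase ring (0.016 in control mouse 4, −0.018 in RST mouse 2). Core minus base and lid spans −0.21 to 0.19 in RST mice around the control values of −0.033 to 0.095.

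Mice differed from each other within each group. RST mouse 4 had the lowest level of the 8 mice in 24 of the 34 genes, and it was also lowest for 46.8% of all genes. Control mouse 2 was highest in 20 of the 34 genes and control mouse 1 in 7. The mean log2 level of the 14 core genes was 7.97, 8.13, 7.51 and 7.62 in control mice and 7.24, 7.53, 7.38 and 6.92 in RST mice. On this scale, which is not set against the median gene, RST mouse 2 lay above control mouse 3. The part of array quality in these levels was not tested.

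**Figure D4:**
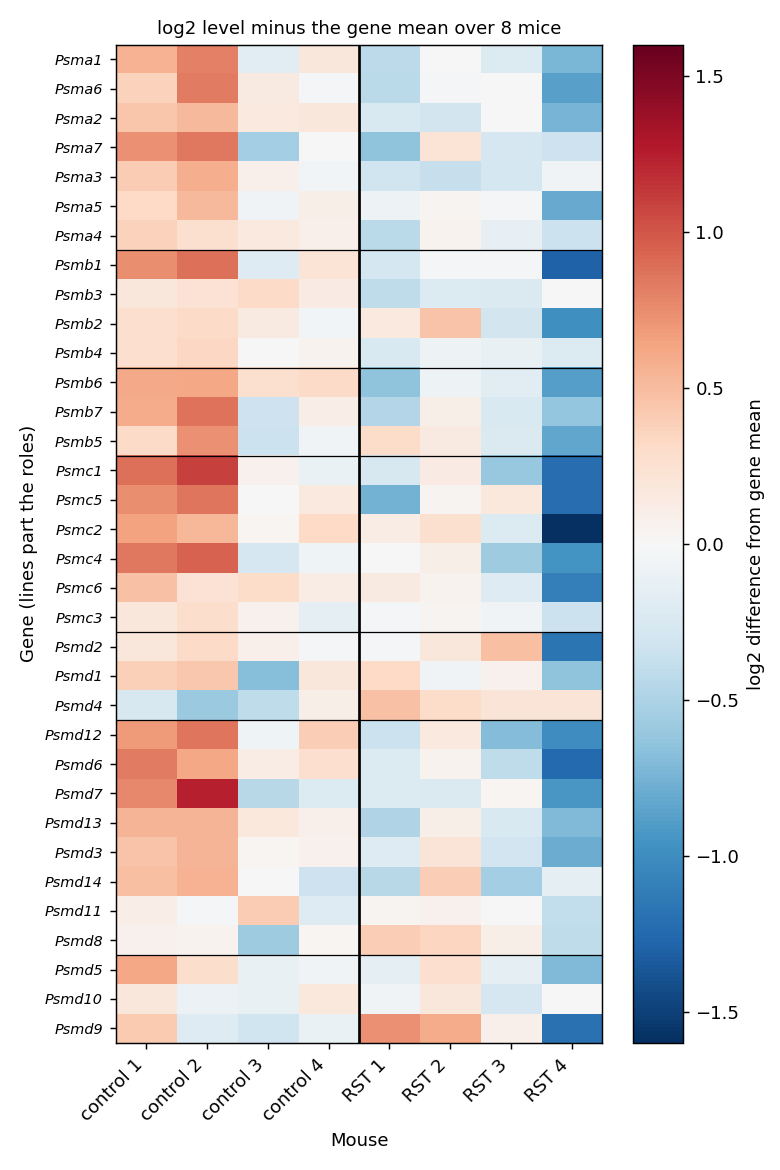
Log2 level of each of the 34 genes minus its mean over the 8 mice (color, −1.6 to 1.6), with mice on the x axis and genes on the y axis, grouped by role. Control mouse 2 is highest in 20 genes and control mouse 1 in 7, RST mouse 4 is lowest in 24, and Psmd4 runs the other way from most of the base.

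Markers of some blood cell types differed between the groups. Of all genes, 67.6% had lower means in RST mice. Reticulocyte and red cell genes had higher means in RST mice in 12 of 12 measured (20 listed), and their mean log2 level was 9.07 to 9.84 in control mice and 9.92 to 10.45 in RST mice. B cell genes were lower in 13 of 13 measured (15 listed; 8.06 to 9.12 and 7.53 to 7.85) and T cell genes in 13 of 13 (15 listed; 7.23 to 7.84 and 6.33 to 7.19). NK cell genes were lower in 9 of 10 (12 listed; 6.89 to 7.54 and 5.93 to 7.16), monocyte genes in 8 of 10 (12 listed; 7.01 to 8.17 and 6.62 to 7.58) and neutrophil genes in 6 of 11 (14 listed; 6.66 to 8.36 and 6.01 to 8.17), with overlap. Platelet genes were higher in 11 of 12 (13 listed; 9.24 to 9.58 and 9.26 to 9.86). On this mean log2 level, which is not set against the median gene, the reticulocyte, B cell and T cell lists did not overlap between groups. On the score used for the groups of subunits, the platelet list did not overlap either (−0.49 to −0.084 in control mice and 0.081 to 0.26 in RST mice). All of these lists averaged well above the array medians of 3.19 to 3.46. The part of cell composition in the proteasome values was not tested.

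Of 36 other genes of the pathway, 26 were measured and 20 had lower means in RST mice (76.9%, against 67.6% of all genes). By the unadjusted rule in limma 6 were lower and 1 higher, where 12.8% and 2.8% of all genes were, and none was called after adjustment. The median difference was −0.55, and −0.25 without control mice 1 and 2. At the brightest probe sets the groups did not overlap for 1 lower gene, Sem1, and for 3 higher genes, Psmf1, Psme3 and Nploc4, against 6.57% and 2.37% of all genes. Without control mice 1 and 2 no related gene was lower by the unadjusted rule (0 of 26).

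Of the 4 measured genes for inhibitors and activators that bind the ends of the core, 3 had higher means in RST mice and Psme1 a lower one. Psmf1, which encodes an inhibitor of the core, was 8.15, 7.83, 8.14 and 8.91 in control mice and 9.57, 9.70, 9.22 and 9.19 in RST mice. The difference in Psmf1 was 1.16 (SE 0.29, 2.24-fold, adjusted p = 0.32 in limma), without overlap. It was 0.90 without control mice 1 and 2. Its other passing probe sets were dim, with means of 3.77 and 3.73 in control mice, and their differences were −0.12 and −0.62, so that the mean over the probe sets of Psmf1 differed by 0.14. Psme3, the nuclear activator, was 12.03, 11.98, 12.01 and 12.35 in control mice and 12.47, 12.48, 12.56 and 12.51 in RST mice, a difference of 0.42 (SE 0.23) without overlap. A second bright probe set of Psme3 differed by 0.31, with overlap. Psme4 had a difference of 0.43 (SE 0.29), with overlap, and a mean over its probe sets of 0.17, and Psme1, a subunit of the interferon-inducible activator, one of −0.55 (SE 0.27).

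Genes that assemble the core were lower in 5 of 5 (4 at the fewest in other settings), with a median difference of −0.87. Psmg3, a chaperone of alpha ring assembly, was 6.72, 6.80, 5.37 and 6.28 in control mice and 4.46, 5.15, 5.44 and 3.86 in RST mice, a difference of −1.57 (SE 0.42, 2.96-fold, adjusted p = 0.32 in limma) that was −1.10 without control mice 1 and 2. Control mouse 3 lay among the RST mice. The differences were −1.32 in Psmg1, −0.87 in Psmg4, −0.62 in Psmg2 and −0.51 in Pomp, the maturation factor of the beta rings. Dimmer passing probe sets differed by −0.11 in Psmg3 and 0.80 in Psmg2. The mean over probe sets differed by −0.84 in Psmg3 and 0.088 in Psmg2. Psmg1 was 2.22 and 1.99 in RST mice 1 and 4, below the medians of their arrays. In RST mice 2 and 3 it was 3.76 and 4.06, within the control range. The median difference of the 5 genes was −0.34 without control mice 1 and 2.

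The immunosubunits replace the catalytic beta subunits in lymphocytes and in cells exposed to interferon. Psmb8 was 8.36, 8.22, 7.72 and 7.72 in control mice and 7.36, 7.94, 7.51 and 6.42 in RST mice (−0.70, SE 0.34). Psmb9 was 7.77, 7.75, 7.18 and 7.33 in control mice and 6.49, 7.31, 7.09 and 5.32 in RST mice (−0.95, SE 0.41). Psmb10 was 8.18, 8.12, 7.42 and 7.51 in control mice and 7.17, 7.68, 7.06 and 6.54 in RST mice (−0.70, SE 0.32). RST mouse 2 lay above control mouse 3 in each of the 3, and RST mouse 4 was lowest. Without control mice 1 and 2 the differences were −0.42 in Psmb8, −0.70 in Psmb9 and −0.35 in Psmb10. The constitutive partners that they replace, Psmb5, Psmb6 and Psmb7, had differences of −0.31, −0.89 and −0.62.

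Among receptors and enzymes that work with the particle, Sem1, a small acidic subunit of the regulatory particle, was 9.17, 9.20, 8.74 and 8.76 in control mice and 8.52, 8.73, 8.60 and 8.09 in RST mice. The difference in Sem1 was −0.48 (SE 0.26), with RST mouse 2 just below control mouse 3. Usp14, a deubiquitinase of the particle, had a difference of 0.48 (SE 0.27), the single higher gene of 8, on a probe set that can bind related transcripts. Its other passing probe sets differed by 0.34, −0.076 and −0.59, and the mean over them all was 0.039. Nfe2l1, the gene of NRF1, had a difference of −0.55 (SE 0.33), Nfe2l2, the gene of NRF2, one of −0.57 (SE 0.47) and Ngly1, which processes NRF1, one of −0.61 (SE 0.38). Without RST mouse 4 these were −0.28, −0.15 and −0.21. A dimmer probe set of Nfe2l2 differed by 0.36, and the mean over its probe sets by −0.11. Without control mice 1 and 2 Nfe2l2 differed by −0.096. The unfoldase gene Vcp differed by 0.44 (SE 0.27) and its dimmer probe set by −0.40. Its cofactor gene Nploc4 was 8.14, 8.29, 8.15 and 7.91 in control mice and 8.48, 8.44, 8.33 and 8.31 in RST mice, a difference of 0.27 (SE 0.23) without overlap. The other cofactor gene, Ufd1, differed by −0.75 (SE 0.30).

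**Figure D5:**
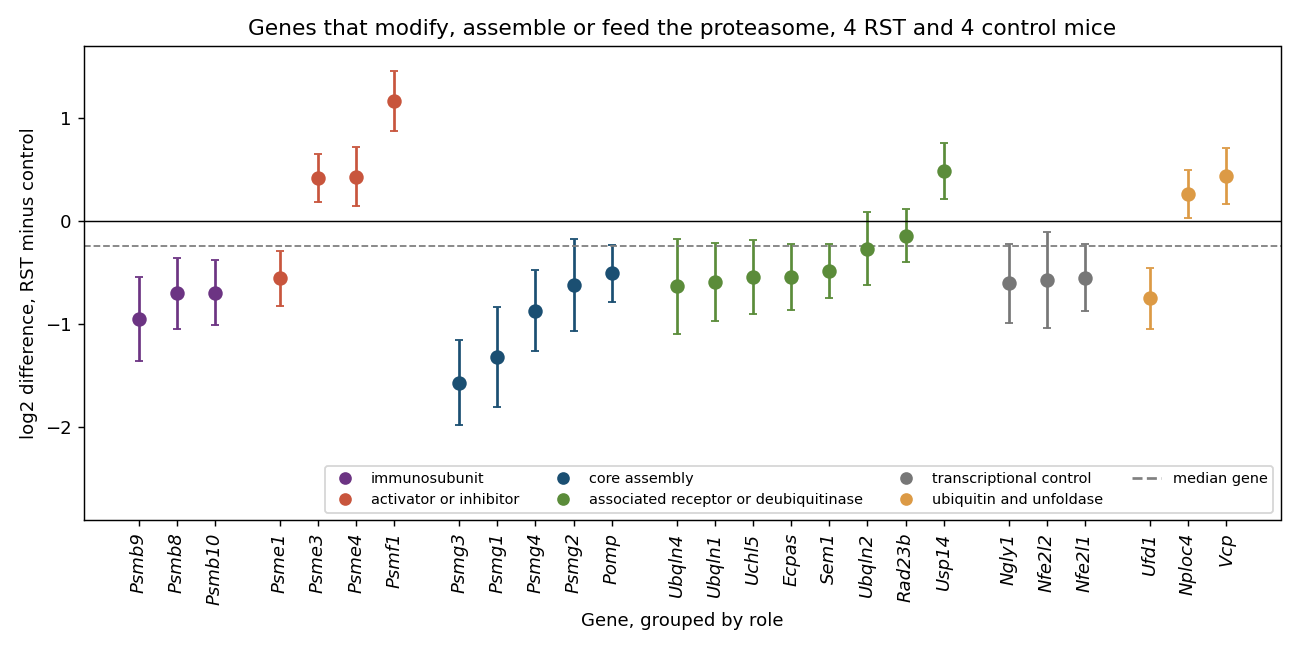
Difference between RST and control mice (log2, y axis) with its SE (n = 4 mice per group) for the 26 measured genes that modify, assemble or feed the proteasome (x axis), colored by role. The dashed line is the median gene at −0.24. The core assembly genes reach −1.57 and the inhibitor Psmf1 lies at 1.16.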

How the data were processed

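The values deposited by the authors are log2 levels of probe sets on 8 arrays, already corrected for background, normalized and summarized. For these steps the methods name GSRMA, and the submitters' processing notes list RMA, Partek and version 1.2.0.20 of Affymetrix Expression Console. Which of these made the table is not settled, and the upper quartiles still ran from 4.50 to 5.37 between arrays. Scanner values, presence calls and scan dates were not used here. Of 45101 probe sets, 64 controls were left out, and 25084 were kept because at least 2 of 4 mice of a group exceeded the array median. RST and control mice, separate animals, were compared with lmFit and eBayes of limma 3.58.1 (R 4.3.3), with Benjamini-Hochberg adjustment over all 25084. Genes come from the platform annotation, updated by Entrez identifier for 34754 probe sets, and 932 probe sets with several genes were not named. The members and lists were chosen with earlier results of these data known. Named with values in every mouse were the 2 genes of smallest p and the largest positive gene of each role, Psmb5, Psmb6, Psmb7, Psmd4 and Psmd14, genes whose probe sets differed in sign, related genes without overlap and the immunosubunits. Psmg3 was chosen after its values were seen. In data simulated for this comparison (50 changed probe sets per fold among 25084), limma found 0% of 1.5-fold, 4% of 2-fold, 34% of 3-fold and 56% of 4-fold changes and made 4 false calls. The simulation drew noise independently for each probe set and held no shift of a whole array, so these rates may not hold here. Precision is limited by 4 arrays per group. Alternatives changed the filter, normalization, floor, prior, weights, test, probe set rule, block, covariate and mice. Promoters are RefSeq's. Python 3.11.15 and matplotlib 3.10.9 drew the figures.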

Additional observations from a re-analysis of the deposited data

Results flagged for a closer look

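Within the control or the RST mice, 3 of 66 sets of 4 values had a mouse far from the other 3 relative to the range, and about 1 in 20 sets is found this way by chance. Psmd8 was 7.83 in control mouse 3, below the other control mice (gap over range 0.93). Psmd11 was 6.89 in RST mouse 4, below the other RST mice (0.84). Psme3 was 12.35 in control mouse 4, above the other control mice and next to the RST mice (0.85).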

How the results depend on the processing

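No proteasome or related gene was called at an adjusted p under 0.05 in limma or the methods' 2-group test under any setting, which limits all counts to unadjusted p values. Besides the changes given in the report, the values moved as follows. Leaving out each mouse in turn gave 3 to 14 lower and 0 to 1 higher proteasome genes and 1 to 8 lower and 1 to 3 higher related genes by the unadjusted rule, and differences of −0.12 to 0.53 in Psmd9, −0.14 to 0.0068 in Psmd10 and −0.48 to 0.074 in Psmd2. The higher proteasome gene, Psmd4, was lost (0 genes) after quantile normalization, scaling to the control probe sets, the mean over probe sets, the replicate block, the covariate, leaving out any of 6 single mice (all but control mouse 4 and RST mouse 4), or leaving out control mice 1 and 2 with or without RST mouse 4. Without a filter the median shift from the median gene was −0.47 for the proteasome and the core, −0.51 for the base and −0.56 for the lid, because the median gene itself moved to −0.043. Quantile normalization gave 3 higher related genes and differences of 0.020 in Psmd2, 0.26 in Psmd10 and 0.11 in Psmd11. Scaling to the control probe sets gave 18 lower proteasome and 11 lower related genes and −0.095 in Psmd9. Array weights gave 2 higher related genes, the methods' 2-group test 2 lower ones, and the mean over probe sets 0 higher ones and −0.34 in Psmd9. The hybridization controls as a covariate gave 1 lower proteasome and 1 lower related gene, shifts of −0.097 for the proteasome, −0.0997 for the base and −0.088 for the lid, and 0.018 in Psmb5. Leaving out control mice 1 and 2, a choice made after seeing the data, gave 0 lower proteasome and 0 lower related genes, shifts of −0.080 for the proteasome, −0.044 for the base and −0.0996 for the lid, and 0.044 in Psmb5. Leaving out RST mouse 4 as well, also chosen after seeing the data, gave 0 and 0, shifts of −0.097, 0.020 (reversed) and −0.095, and differences of 0.27 in Psmb5, 0.19 in Psmd2, 0.076 in Psmd5 and 0.20 in Psmd7. The cause of these changes was not tested except where given. The numbers in the labels did not pair the mice: correlations of the deviations of same-numbered mice ran from −0.24 to 0.42, and 0 RST mice correlated best with their own number. With the replicate block there were 11 lower proteasome genes and 7 lower related genes.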
